A study of Mus musculus with 32 samples.

Results

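The genes described here mark subfields of the hippocampus: Prox1, Dsp, C1ql2, Wfs1, Fibcd1, Spink8, Bok, Iyd and Zbtb20. They were followed through mRNA sequencing of mouse hippocampus and amygdala. The 9 genes were taken from a fixed list of symbols and were all present among the 53715 genes counted. RNA came from 16 adult male mice, 4 of each genotype, and both regions were microdissected from every mouse, which gave 32 libraries in 8 groups of 4. The genotypes were wild type (WT), heterozygous deletion of the histone H3K4 methyltransferase gene Kmt2a (Kmt2a-HET), loss of the X-linked H3K4 demethylase gene Kdm5c in hemizygous males (Kdm5c-KO), and both lesions together (double mutant, DM). All mice were F1 hybrids of 129S1/SvImJ fathers carrying the Kmt2a deletion and C57BL/6J mothers carrying the Kdm5c deletion, so all 4 genotypes came from the same kind of cross. Both alleles are inherited deletions of exons and are present in every cell of the mouse. No treatment was given.

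The hippocampus relays information from the dentate gyrus, whose granule cells send mossy fibres to CA3 pyramidal cells, to the CA1 pyramidal cells that provide its main output. Each field can be recognised by genes that its principal cells express and neighbouring tissue largely does not. The dentate granule cell markers were Prox1, a homeodomain factor that sets granule cell identity, Dsp, the desmosomal linker desmoplakin, and C1ql2, a secreted C1q-like protein of mossy fibre synapses. The CA1 markers were Wfs1, the endoplasmic reticulum membrane protein wolframin, Fibcd1, a membrane protein with a fibrinogen-like domain, and Spink8, a member of the Kazal-type serine protease inhibitor family. Bok, a BCL-2 family member, and Iyd, the enzyme that deiodinates iodotyrosines, were listed for CA3. Zbtb20, a zinc finger repressor needed for hippocampal pyramidal neuron identity, is expressed more broadly. The amygdala served as a second forebrain region from the same mice, in which granule, CA1 and CA3 cells should be absent. In bulk tissue, fewer cells of a type and less RNA per cell cannot be told apart.

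The only one of the 9 called between genotypes was Spink8, on mouse chromosome 9 at chr9:109812280-109826633 of mm10, plus strand. Part of its annotated coding sequence is shown because the counts divided between a pair of transcripts that differ at the 3′ end of the coding part. Capitals mark in-frame cysteine codons, the residues that hold Kazal domains together by disulphide bonds. The stretches run from the first cysteine codon, at coding base 130, to the last codon before the stop, and come from the GENCODE M21 transcripts of GRCm38, the assembly of mm10.
Spink8 ENSMUST00000198988.4: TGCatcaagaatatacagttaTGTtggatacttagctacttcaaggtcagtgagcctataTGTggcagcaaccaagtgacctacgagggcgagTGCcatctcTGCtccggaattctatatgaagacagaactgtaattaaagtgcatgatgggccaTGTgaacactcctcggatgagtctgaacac
Spink8 ENSMUST00000118732.3: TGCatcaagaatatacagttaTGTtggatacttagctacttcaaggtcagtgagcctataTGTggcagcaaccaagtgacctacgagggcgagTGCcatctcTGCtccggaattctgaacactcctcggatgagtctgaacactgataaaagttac
The first 245 coding bases were identical in both. ENSMUST00000198988.4 has 315 coding bases in 105 codons with 6 cysteine codons, over 5 exons, and ENSMUST00000118732.3 has 285 coding bases in 95 codons with 5 cysteine codons, over 4 exons.

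Promoter windows of 300 bases, from 250 before to 50 after a RefSeq transcription start in GRCm38.p6, matched 8 of the 9 genes. Windows are shown for a dentate gene, a pair of CA1 genes that behaved differently between regions and a CA3 gene, with each CG dinucleotide in capitals, since KMT2A binds unmethylated CpG DNA and H3K4 trimethylation concentrates at CpG-rich promoters.
Dsp, chr13:38151044-38151343, plus strand: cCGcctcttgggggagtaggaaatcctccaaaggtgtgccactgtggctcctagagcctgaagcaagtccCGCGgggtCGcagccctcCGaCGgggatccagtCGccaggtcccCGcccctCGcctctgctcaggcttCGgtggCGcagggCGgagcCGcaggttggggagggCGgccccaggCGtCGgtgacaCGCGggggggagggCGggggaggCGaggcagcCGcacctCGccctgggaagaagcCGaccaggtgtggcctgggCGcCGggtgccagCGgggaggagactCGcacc
Fibcd1, chr2:31845956-31846255, minus strand: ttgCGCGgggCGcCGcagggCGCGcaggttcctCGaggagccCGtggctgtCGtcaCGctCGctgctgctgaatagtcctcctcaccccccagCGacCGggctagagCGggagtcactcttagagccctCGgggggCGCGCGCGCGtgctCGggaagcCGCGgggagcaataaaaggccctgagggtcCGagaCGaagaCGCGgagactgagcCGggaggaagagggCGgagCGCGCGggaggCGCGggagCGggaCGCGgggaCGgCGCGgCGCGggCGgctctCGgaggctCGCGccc
Wfs1, chr5:36988933-36989232, minus strand: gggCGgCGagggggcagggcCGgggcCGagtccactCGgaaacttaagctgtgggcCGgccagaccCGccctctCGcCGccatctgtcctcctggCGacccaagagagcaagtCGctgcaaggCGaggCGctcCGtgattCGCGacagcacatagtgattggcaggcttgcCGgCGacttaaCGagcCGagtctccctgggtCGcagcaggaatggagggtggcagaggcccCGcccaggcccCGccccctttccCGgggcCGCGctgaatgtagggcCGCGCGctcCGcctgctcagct
Iyd, chr10:3540024-3540323, plus strand: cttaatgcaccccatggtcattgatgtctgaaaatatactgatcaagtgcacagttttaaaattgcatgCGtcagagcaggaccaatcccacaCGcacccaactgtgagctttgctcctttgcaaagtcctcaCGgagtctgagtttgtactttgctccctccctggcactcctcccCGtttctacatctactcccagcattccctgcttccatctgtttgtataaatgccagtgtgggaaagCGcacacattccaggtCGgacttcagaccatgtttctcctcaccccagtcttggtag
The Fibcd1 window held 46 CG, and 98.6% of the 32851 promoter windows of the same length held as many or fewer. Wfs1 held 30 (89.4%), Dsp 27 (85.8%) and Iyd 6 (47.9%), against a median of 7 over all windows. Of those not printed, C1ql2 held 23, Bok 16, Prox1 25 and 14 at a pair of annotated starts, and Zbtb20 held 3. The Zbtb20 window lies 339632 bases from the start of ENSMUST00000114694.8, which took 99.3% of the Zbtb20 counts in hippocampus, so it does not describe the promoter used here. Genes higher in hippocampus thus had windows with as few as 6 and as many as 46 CG.

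Libraries held 19215489 to 27798976 counts assigned to genes, and a count of 3 corresponded to 0.108 to 0.156 CPM (counts scaled to a common library total). Values below are expected counts divided by DESeq2 size factors of all 32 libraries, called normalised counts, and are given in replicate order 1 to 4. Calls were made with the DESeq2 Wald test over all genes, at a p below 0.1 after Benjamini-Hochberg adjustment. The whole-gene counts check the genotypes only in part, because undeleted exons are still transcribed: in hippocampus Kdm5c stood at 1640 ± 222 (SD, n = 4) in WT and 1296 ± 93.1 in Kdm5c-KO, and Kmt2a at 4468 ± 1254 in WT and 5172 ± 1435 in Kmt2a-HET. Hippocampal libraries of 2 mice stood apart in several members. The hippocampus of Kdm5c-KO replicate 1 had the lowest Prox1, Dsp, C1ql2, Iyd and Zbtb20 of all 16 hippocampal libraries and the highest summed level of choroid plexus genes (103078 normalised counts over 5 genes, against 882 to 27085 in the other 15). It also had the highest summed level of 6 striatal genes (7205, against 1852 to 2593), of 5 ventral hippocampus genes (5276, against 1657 to 3997) and of 5 meningeal genes (1073, against 344 to 912). The hippocampus of Kmt2a-HET replicate 4 had the highest Prox1 (4801, next 2883), Dsp (4182, next 2878), Wfs1 (8115, next 7057) and Zbtb20 (14903, next 11906), and the highest sum of 10 other dentate genes (16015, against 6683 to 13586). Leaving out Kmt2a-HET replicate 4 changed no count of members called in the comparisons that include it. Calls of members that rest on either group are given without these libraries where they changed.

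**Figure D1:**
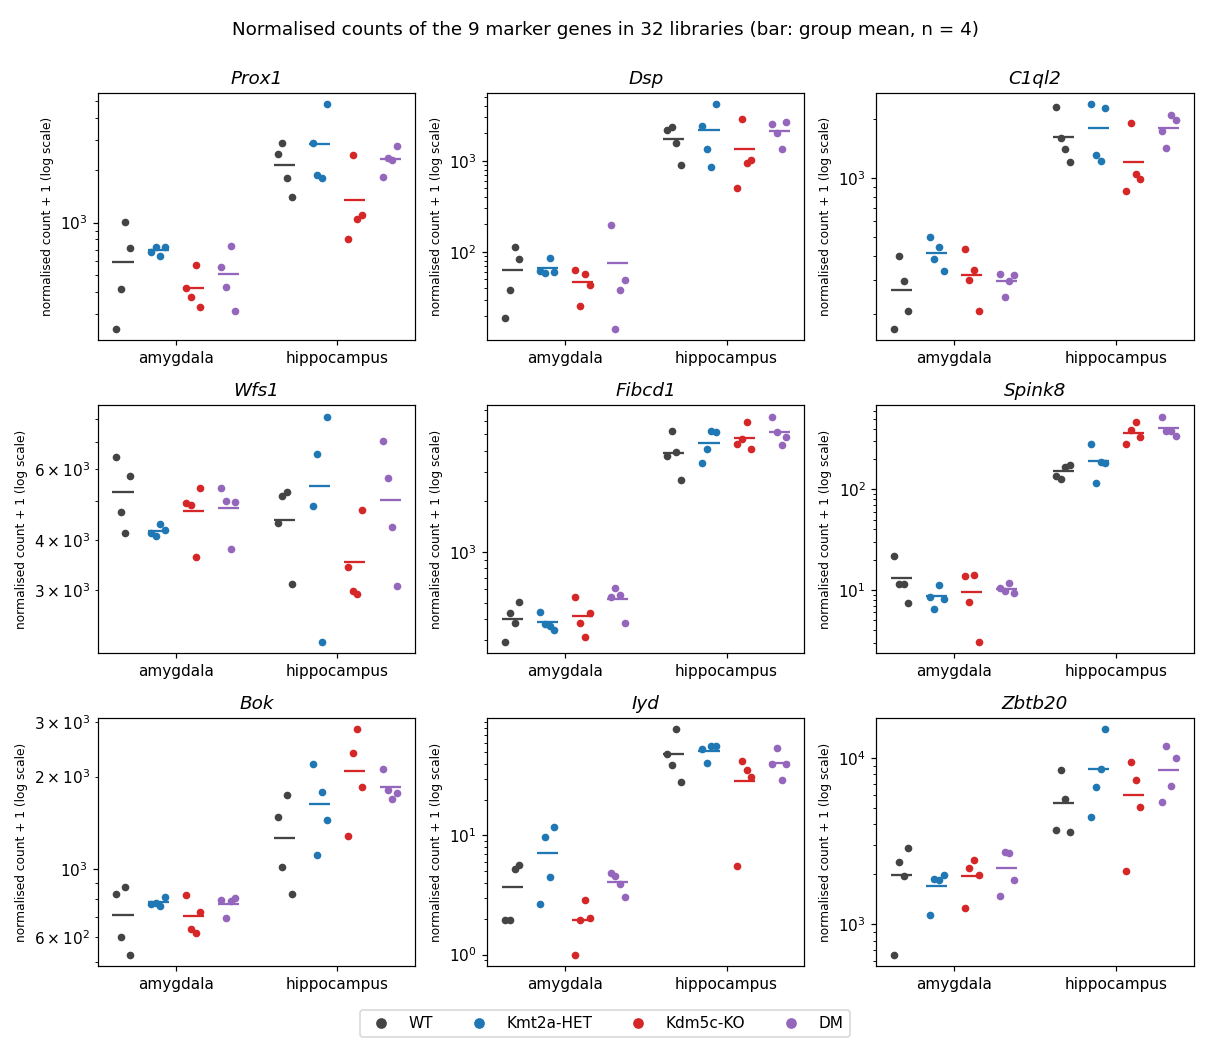
Normalised counts plus 1 (log axis) of the 9 genes in each of 32 libraries, with the mean of each group of 4 as a bar and genotypes by colour. For Dsp, C1ql2, Fibcd1 and Spink8 every hippocampal library lies above every amygdala library, Wfs1 does not separate the regions, and Spink8 in hippocampus is higher in Kdm5c-KO and DM (277 to 523) than in WT and Kmt2a-HET (114 to 280).

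The first comparison asked whether the markers separate hippocampus from amygdala in each genotype. In WT, 8 of the 9 genes were higher in hippocampus and none was lower. Over all genes tested, 10.1% were called higher in WT. The same 8 genes were higher in each mutant, where the background was 15.1% for Kmt2a-HET, 11.8% for Kdm5c-KO and 13.6% for DM. The gene that was not called in any genotype was Wfs1. The median log2 fold change of the 9 genes was 2.61 in WT, against -0.017 over all genes tested. The listing chose genes for this very pattern, so the counts describe the dissections rather than add evidence for the markers.

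Among the dentate genes, Dsp separated the regions most. Its WT hippocampal libraries had 2187, 2324, 1547 and 888 normalised counts and the WT amygdala libraries 18.0, 36.8, 113 and 83.5. The difference was 4.79 ± 0.64 (log2, SE) in WT and 5.08, 4.85 and 4.86 in Kmt2a-HET, Kdm5c-KO and DM (adjusted p between 1.33e-13 and 7.24e-12). Every mouse had more Dsp in its hippocampus, by 8.03 to 154 times with a median of 30.0. The highest amygdala value was 195 normalised counts in DM replicate 1, where the other DM amygdala libraries had 13.2, 37.5 and 48.7. That amygdala library also had a summed choroid plexus level of 40257, against 763 to 7485 in the other 15 amygdala libraries, and the part of this in the Dsp value was not tested. Without DM replicate 1 the Dsp difference in DM was 5.93, and without Kdm5c-KO replicate 2 that in Kdm5c-KO was 3.94, both still called.

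C1ql2 was 2310, 1595, 1406 and 1213 in WT hippocampus and 167, 398, 294 and 207 in WT amygdala. The groups did not overlap, in WT or over all 32 libraries. Its region difference was 2.61 ± 0.27 (log2, SE) in WT and 2.62 in DM, against 1.92 in Kdm5c-KO and 2.12 in Kmt2a-HET. Prox1 showed a smaller difference, 1.85 ± 0.39 in WT, with 2488, 2872, 1797 and 1394 normalised counts in hippocampus and 243, 412, 1003 and 710 in amygdala. Prox1 was higher in the hippocampus of all 16 mice, by 1.79 to 10.2 times, although 1 hippocampal library (799, Kdm5c-KO replicate 1) fell below the highest amygdala library (1003, WT replicate 3). Prox1 also marks interneurons derived from the caudal ganglionic eminence, which are present in amygdala.

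The CA1 genes divided. Fibcd1 was 3721, 5246, 3913 and 2690 in WT hippocampus and 292, 432, 379 and 504 in WT amygdala. Its difference was 3.28 ± 0.20 (log2, SE; adjusted p = 1.41e-57) in WT and 3.54, 3.51 and 3.31 in the Kmt2a-HET, Kdm5c-KO and DM mice. It was the steadiest of the 9 in hippocampus, with a coefficient of variation of 20.6% over the 16 libraries. Spink8 was 133, 125, 165 and 174 in WT hippocampus and 20.9, 10.4, 10.5 and 6.49 in WT amygdala, a difference of 3.63 ± 0.32. The Spink8 difference in Kmt2a-HET mice was 4.62 ± 0.35, that in Kdm5c-KO 5.40 ± 0.35 and that in DM 5.44 ± 0.33. Amygdala counts of Spink8 ran from 2 to 22 reads, and 9 of 16 libraries had 10 or more, so the size of its region difference rests on few amygdala reads.

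Wfs1 did not separate the regions. It was 4413, 5157, 5261 and 3107 in WT hippocampus and 6445, 4704, 4164 and 5768 in WT amygdala, and the groups overlapped. The log2 difference was -0.23 in WT, with a 95% interval of -0.74 to 0.28, and 0.37, -0.42 and 0.07 in Kmt2a-HET, Kdm5c-KO and DM (adjusted p between 0.296 and 0.901). Wfs1 was higher in the hippocampus of 8 of 16 mice. Wolframin is also abundant in neurons of the central extended amygdala. Without Kmt2a-HET replicate 3, whose hippocampus had the lowest value of all (2222), Wfs1 was called higher in Kmt2a-HET hippocampus (0.65, adjusted p = 0.0452).

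Of the CA3 genes, Bok had the smallest region difference of the 8 genes called, 0.84 ± 0.22 (log2, SE) in WT. It was 1475, 1015, 1739 and 826 in WT hippocampus and 829, 599, 872 and 526 in WT amygdala, so single libraries of the regions overlapped, but each of the 16 mice had more in hippocampus, by 1.43 to 4.59 times. Iyd was rare. Its hippocampal values in WT were 46.8, 37.9, 76.6 and 27.1 and its amygdala values 0.949, 0.944, 4.19 and 4.64, and 9 of 16 amygdala libraries were at or under 3 normalised counts. The fitted difference was 4.14 ± 0.62 in WT, 4.77 without WT replicate 4, and between 3.05 and 4.79 in the other genotypes.

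Zbtb20 was 3721, 8548, 5651 and 3573 in WT hippocampus and 658, 2363, 1961 and 2896 in WT amygdala. Its difference was 1.45 ± 0.41 (log2, SE; adjusted p = 0.0038) in WT and 1.61 in Kdm5c-KO, with 2.34 in Kmt2a-HET and 1.97 in DM. It ranged from 2104 to 14903 over the hippocampal libraries, a factor of 7.08. In 3 of the 4 genotypes the lowest hippocampal Zbtb20 was in replicate 1, and the lowest amygdala value was in replicate 1 in all 4. Without the mice numbered 1, its WT difference was 1.30 (adjusted p = 0.000733).

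**Figure D2:**
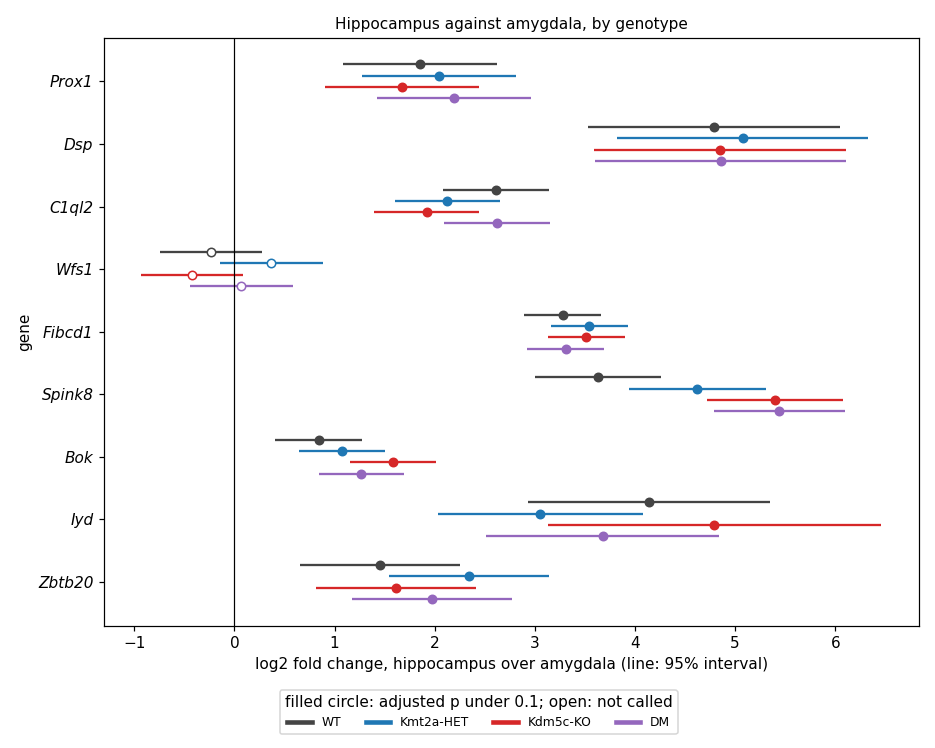
Log2 fold change of hippocampus over amygdala for each gene and genotype, with 95% intervals from the fit of 32 libraries. Filled circles are called. All genes but Wfs1 lie right of 0 in all 4 genotypes, and Spink8 moves from 3.63 in WT to 5.40 in Kdm5c-KO and 5.44 in DM.

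Levels were compared between genes as CPM per kilobase of exon. In WT hippocampus Wfs1 was highest at 49.8 ± 10.9 (SD, n = 4), followed by Fibcd1 at 34.4 ± 8.96, C1ql2 at 34.2 ± 9.74 and Bok at 28.9 ± 9.65, and these last 3 were within their spread of each other. Prox1 stood at 10.7 ± 3.21, Spink8 at 7.66 ± 1.32, Dsp at 7.54 ± 2.79 and Zbtb20 at 7.34 ± 3.11, again within their spread. Iyd was lowest at 1.22 ± 0.560. In WT amygdala Wfs1 at 61.9 ± 11.4 and Bok at 17.1 ± 3.84 led, and Dsp, Spink8 and Iyd were under 1 (0.290, 0.651 and 0.0734). When lengths were taken from the longest transcript in place of the union of exons, 3 of 9 genes kept their rank, so the order within the close groups depends on the length used. Prox1, Dsp and Zbtb20 overlap exons of annotated genes on the other strand. The library kit keeps strand, but the strand setting of the counting was not given in the sources used here, so their counts could include reads of those genes.

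Among other genes known for hippocampal fields, the CA1 list was higher in hippocampus throughout in the WT region comparison, and the other lists held genes of both directions. All 6 of the other CA1 genes were higher in hippocampus, among them the protease gene Klk8 (2.94, log2), the Nodal inhibitor gene Lefty1 (3.20) and Mpped1 (1.29), with a list median of 1.87. Of 10 other dentate genes 6 were higher, led by Il16 (4.57), Lct (4.98) and the cation channel gene Trpc6 (2.00), and 2 were lower (Calb1, -0.45, and Gsg1l, -0.93). Of 5 other CA3 genes 3 were higher, Homer3 (2.52), the kainate receptor gene Grik4 (1.42) and Nectin3 (0.94), and 1 was lower (Coch, -1.89). Of 6 CA2 genes 2 were higher, including Stard5 (0.98), and 3 were lower, including Cacng5 (-1.49) and Pcp4 (-1.27). Hilar mossy cell genes gave 1 higher (Csf2rb2, 1.53) and 1 lower (Calb2, -1.97) of 3, and ventral hippocampus genes 2 higher and 2 lower (Gpc3, -1.92, and Htr2c, -1.79) of 5. Calb1, Gsg1l and Coch were named after their values were seen. The background of genes called in either direction was 21.6%.

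Lists for tissue outside the hippocampus described the dissection. All 6 striatal genes were lower in hippocampus, among them Six3 (-6.21), Adora2a (-5.43) and Rgs9 (-3.57), and 4 of 5 thalamic genes were lower, including Tcf7l2 (-2.96), Rora (-0.97) and Slc17a6 (-2.14). Of 5 amygdala genes 3 were lower in hippocampus, including Tac2 (-1.95) and Crh (-1.82), and Rspo2 was higher (1.62). Meningeal genes were lower in 3 of 5 (Col1a2, -1.19, Col1a1, -0.73, and Slc6a13, -1.01). Choroid plexus genes were higher in 3 of 5, with Kl at 2.56 and Folr1 at 3.39. Interneuron genes gave 1 lower (Sncg, -1.62) and 1 higher (Htr3a, 0.70) of 5, and Gfap was the 1 astrocyte gene of 4 called (0.87). None of the 3 cortical, 5 oligodendrocyte, 4 microglial, 3 endothelial and 5 blood genes was called in this comparison by DESeq2.

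The second question was whether loss of KDM5C or reduced KMT2A dose altered the subfield markers within the hippocampus. Spink8 rose in the absence of Kdm5c. WT hippocampi had 133, 125, 165 and 174 normalised counts and Kmt2a-HET hippocampi 280, 114, 186 and 180. Kdm5c-KO hippocampi had 277, 383, 462 and 327, and DM hippocampi 523, 381, 379 and 334. Every Kdm5c-KO and DM library was above every WT library, and the only overlap with Kmt2a-HET was its replicate 1, at 280 against 277 in Kdm5c-KO replicate 1.

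Against WT, Spink8 was 1.28 ± 0.23 (log2, SE) higher in Kdm5c-KO, or 2.43-fold (adjusted p = 3.34e-05), and 1.43 ± 0.23 higher in DM, or 2.70-fold (adjusted p = 1.07e-06). It was the 1 member called of 9 in each of these comparisons, in which 0.829% and 0.706% of all genes tested were called higher. It was also 1.09 ± 0.23 higher in DM than in Kmt2a-HET (adjusted p = 0.00143, background 0.525%). With Kdm5c as a factor, 8 libraries without it against 8 with it, the difference was 1.18 ± 0.16 (adjusted p = 1.63e-10, background 2.11%). edgeR's quasi-likelihood test gave adjusted p of 0.0283, 0.0119, 0.08 and 0.000541 for these 4 comparisons in the same order. Each of them stayed called when any single library was left out. With size factors from the ERCC spike-ins, which made up 0.0503% to 0.295% of hippocampal counts, none was called: the differences were 1.36, 0.73, 0.63 and 0.99 (adjusted p of 0.882 or more). With those factors the DM fold fell from 2.70 by more than 1.5 times.

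Kmt2a dose left Spink8 without a detected difference. Kmt2a-HET against WT gave 0.35, with a 95% interval of -0.12 to 0.81, and DM against Kdm5c-KO gave 0.16, with an interval of -0.29 to 0.60. The non-additive term of DM was -0.19 (interval -0.84 to 0.45, adjusted p = 1).

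Both Spink8 transcripts followed the gene. ENSMUST00000198988.4 ran from 78.1 to 148 normalised counts in the 8 libraries with Kdm5c and from 172 to 323 in the 8 without it, with no overlap. ENSMUST00000118732.3 ran from 34.5 to 132 and from 105 to 202. The share of ENSMUST00000198988.4 among the pair was 61.0% ± 7.93 (SD, n = 4) in WT and 61.3% ± 4.19 in Kdm5c-KO, and 61.8% ± 7.06 and 63.0% ± 2.28 in Kmt2a-HET and DM. These transcript values are estimates that share reads of the common 5′ part, and their differences were not tested.

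**Figure D3:**
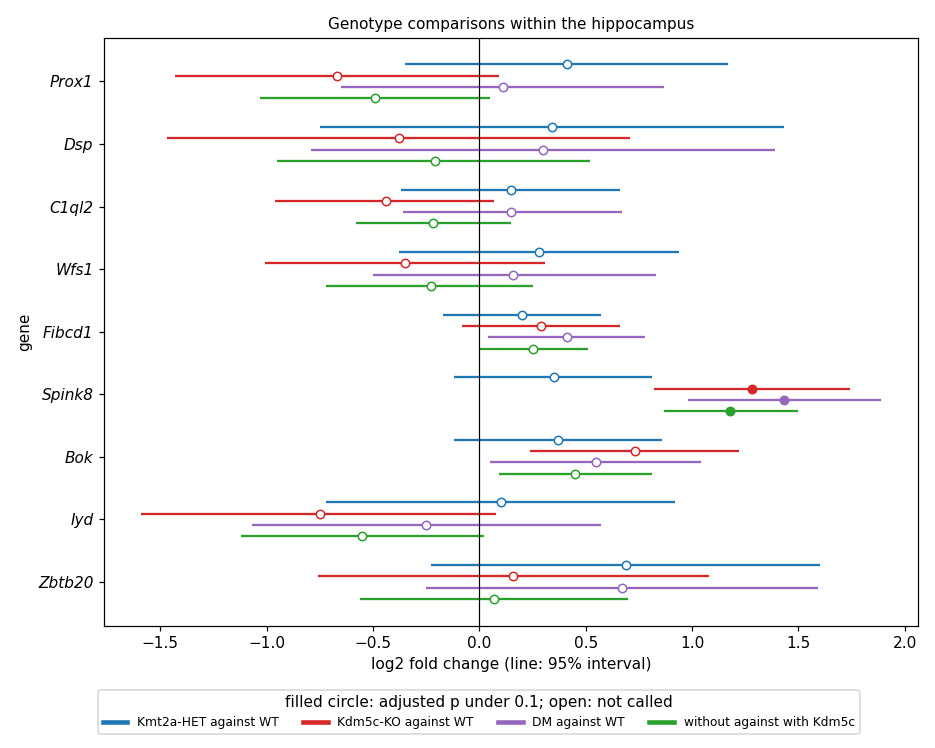
Log2 fold changes within the hippocampus for 3 genotypes against WT and for the 8 libraries without Kdm5c against the 8 with it, with 95% intervals. The filled circles, the calls, all belong to Spink8 at 1.28, 1.43 and 1.18, and the intervals of the other genes in these comparisons are open.

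Spink8 was also compared within each library against the other CA1 genes, which removes library scaling. The log2 ratio of Spink8 to Fibcd1 was -4.64 ± 0.60 (SD, n = 8) with Kdm5c and -3.71 ± 0.15 without it, a difference of 0.93 (2-sided exact permutation test, p = 0.00249). The ratio to Wfs1 was -4.83 ± 0.79 and -3.43 ± 0.45, a difference of 1.39 (exact permutation p = 0.00109). The 2 ratios were chosen after the data were seen, when Spink8 had already been called in these same libraries, so their p-values add no separate support. The ratios describe a Spink8 change unequal to that of its fellow CA1 markers, and do not show that those markers were unchanged. For Fibcd1 the difference without against with Kdm5c was 0.25 (95% interval up to 0.51, adjusted p = 0.515), and for Wfs1 it was -0.23 (interval -0.72 to 0.25).

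Choroid plexus genes, which mark the secretory epithelium of the ventricles next to the hippocampus, moved with the same factor. Of 5 listed, 4 were called higher without Kdm5c (Kcnj13 3.89, Folr1 3.13, Clic6 2.77 and Kl 1.77, log2). The fifth was not called (2.87, adjusted p = 0.117). Without Kdm5c-KO replicate 1, Folr1 (2.54, adjusted p = 0.295) and Clic6 (2.17, 0.189) were not called and Kcnj13 fell to 3.17 (0.0818), and without WT replicate 3 Kcnj13 was at 4.50. Kl and Kcnj13 stayed called without any 1 of the 16 libraries, Clic6 without 14 of them and Folr1 without 8. The summed level over the 5 genes was 5232, 882, 25397 and 5092 in WT hippocampi and 2563, 931, 1477 and 913 in those of Kmt2a-HET mice. It was 103078, 1330, 13155 and 25991 for the Kdm5c-KO mice and 1100, 26999, 1117 and 27085 for the DM mice. The fifth gene gave 24.5% to 92.6% of these sums, and the 4 called genes alone summed to 533 to 1889 in the 8 libraries with Kdm5c and to 591 to 12148 in the 8 without it. Spink8 was at 379 to 523 normalised counts in the 3 libraries without Kdm5c that had the least of these genes (Kdm5c-KO replicate 2 and DM replicates 1 and 3), and at 277 to 462 in the 5 that had more. The part of these genes in the Spink8 result was not tested.

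**Figure D4:**
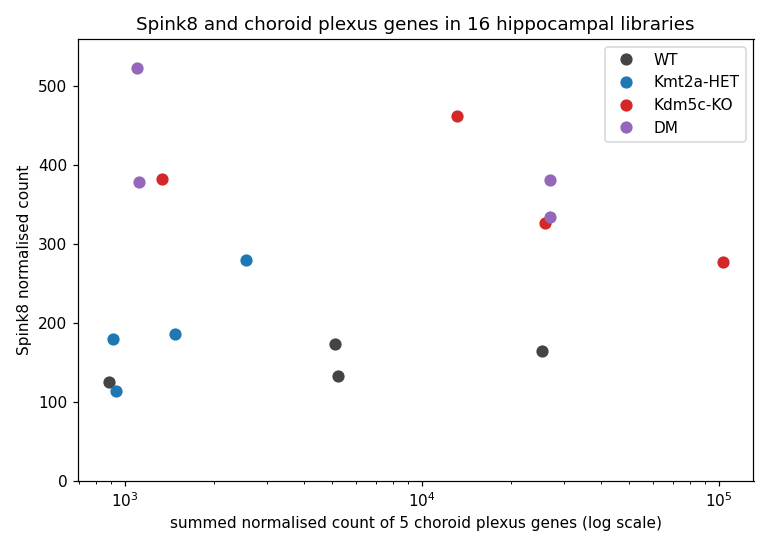
Spink8 normalised count (linear axis from 0) against the summed normalised count of 5 choroid plexus genes (log axis) in the 16 hippocampal libraries, coloured by genotype. Kdm5c-KO and DM points lie between 277 and 523 at both ends of the horizontal axis, and the WT library with 25397 choroid plexus counts has a Spink8 count of 165.

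The other field lists held 2 calls in the comparison of libraries without and with Kdm5c in hippocampus, in which 2.66% of all genes were called in either direction. The CA2 gene Map3k15 was 1.41 higher (log2, adjusted p = 0.000472), as 1 of 6 CA2 genes, and stayed called when any 1 of the 16 libraries was left out. Trpc6 was the 1 of 10 other dentate genes called, at -0.53, and kept its call in 6 of 16 such omissions. None of the 6 other CA1 or 5 other CA3 genes was called. Of the lists for other cells, the meningeal gene Ogn was lower (-1.49) and Gfap higher (0.42), both called in 16 of 16 omissions. Lum (-0.77, called in 7 of 16) and the haemoglobin gene Hba-a2 (-0.53, called in 5 of 16) were lower. The part of these genes in the Spink8 result was not tested. Gfap was also higher in DM than in WT (0.68, called in 8 of 8 omissions, with 0.875% of all genes called). Ogn was lower in DM than in Kmt2a-HET (-1.72, called in 2 of 8, background 0.603%), and Rspo2 was lower with 1 Kmt2a copy (-0.68, called in 5 of 16).

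Bok was the other member with an unadjusted p under 0.05 for Kdm5c as a factor (0.0139; adjusted p = 0.267). Hippocampal values, next to 1475, 1015, 1739 and 826 for WT, were 1279, 2385, 2847 and 1854 for Kdm5c-KO and 2122, 1813, 1686 and 1766 for DM. Kmt2a-HET mice had 2190, 1112, 1778 and 1447. The groups overlapped. Kdm5c-KO was 0.73 ± 0.25 (log2, SE) above WT, with an unadjusted p of 0.0037, and was not called (adjusted p = 0.213). It was called with the replicate number as a block (0.77, adjusted p = 0.048), without the mice numbered 1 (0.98, adjusted p = 0.0142), without Kdm5c-KO replicate 1 (0.90, adjusted p = 0.0406), and without WT replicate 3 (0.92, adjusted p = 0.0561), and fell to 0.54 without Kdm5c-KO replicate 3.

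The dentate genes were lower in Kdm5c-KO than in WT hippocampus without a call. Prox1 was 799, 2445, 1043 and 1100 in Kdm5c-KO, a difference of -0.67 (interval -1.43 to 0.09), C1ql2 differed by -0.44 (-0.96 to 0.07) and Dsp by -0.38 (-1.47 to 0.71). All 3 were low in replicates 1, 3 and 4 and high in replicate 2. Without Kdm5c-KO replicate 2, Prox1 was called lower than in WT (-1.12, adjusted p = 0.0997), and Prox1 and C1ql2 were called higher in DM than in Kdm5c-KO (1.23 and 0.90, adjusted p = 0.0864 and 0.0546). Without Kdm5c-KO replicate 1, the Prox1 difference from WT was -0.48, and DM was above Kdm5c-KO by 0.59 for Prox1 and 0.46 for C1ql2, none of them called. With all 4 mice the DM differences were 0.78 and 0.59 (adjusted p = 1 for both). Iyd differed by -0.75 in Kdm5c-KO (interval -1.59 to 0.08) and Zbtb20 by 0.16 (-0.76 to 1.08). A loss of Dsp as large as the Spink8 gain lies inside its interval.

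No member was called for Kmt2a-HET against WT in hippocampus by DESeq2 or edgeR, where 0% of all genes were called in either direction, and 0 of the 9 had an unadjusted p under 0.05. Fold changes of the 9 ran from 0.10 to 0.69 (log2) with a median of 0.34, all above 0. These include Kmt2a-HET replicate 4, the highest hippocampal library for Prox1, Dsp, Wfs1 and Zbtb20, and are not given without it. Hippocampal Dsp was 2395, 1358, 854 and 4182 in Kmt2a-HET, next to 2187, 2324, 1547 and 888 in WT. DM against Kdm5c-KO (0.0067% of all genes), additivity (0%) and Kmt2a dose over 8 libraries against 8 (0.103%) had no member called by either tool. At an unadjusted p under 0.05 they had 2, 0 and 2 members. The percentages are of genes called after adjustment, and no share of all genes at an unadjusted p is given.

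In the amygdala no member was called in any of the 8 genotype comparisons by DESeq2 or by edgeR when all 16 libraries were fitted together. A DESeq2 fit of DM and Kmt2a-HET alone called C1ql2 (-0.49, adjusted p = 0.0442) and Fibcd1 (0.45, adjusted p = 0.0856). At an unadjusted p under 0.05 there were 2 for Kmt2a-HET against WT, 0 for Kdm5c-KO against WT and 1 for DM against WT, in which 0.00988%, 0.751% and 0.966% of all genes were called. There were 0 for DM against Kdm5c-KO and 2 for DM against Kmt2a-HET (0.00329% and 0.845% of all genes), and 1 each for additivity, Kdm5c as a factor and Kmt2a dose (0.00329%, 1.68% and 0%). These shares are of genes called after adjustment. They are no background for the counts at an unadjusted p, for which none is given. Amygdala Spink8 without against with Kdm5c was -0.11 (log2), with a 95% interval of -0.85 to 0.62, next to 1.18 in hippocampus. The amygdala value rests on 2 to 22 reads a library and ran from -0.20 to 0.11 over single left-out libraries. The contrast between the regions, given below, was not called with all libraries. Amygdala Bok without against with Kdm5c differed by -0.01 (-0.21 to 0.19). Among the other lists, Map3k15 was higher without Kdm5c (0.95, log2) and Lum lower (-1.88), both called in 16 of 16 omissions of a library, and the calcium-binding protein gene Calb1 was lower (-0.29, called in 10 of 16). Sncg was higher in Kdm5c-KO than in WT (1.01, called in 3 of 8). The choroid plexus genes Kl (2.86) and Kcnj13 (2.57) were higher in DM than in WT, and without DM replicate 1 Kl was at 1.37 (adjusted p = 0.023) and Kcnj13 at 1.20 (adjusted p = 0.456).

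Whether the genotype effect itself differed between regions was tested as the hippocampus-minus-amygdala difference without Kdm5c less that with Kdm5c, a contrast added after the data were seen. For Spink8 it was 1.30 ± 0.34 (log2, SE; unadjusted p = 0.000125), which did not pass over all genes (adjusted p = 0.135, with 0.0871% of all genes called). It was called without WT replicate 4 (1.44, adjusted p = 0.0625), without Kmt2a-HET replicate 1 (1.43, 0.0416) or without Kdm5c-KO replicate 1 (1.46, 0.0511), and edgeR gave an adjusted p of 0.737. With the mouse as a block the contrast was 1.31 (adjusted p = 0.366). For Bok the contrast was 0.47 ± 0.22 (adjusted p = 1). In the 3 contrasts of a single genotype with WT, no member was called by DESeq2 or edgeR (0%, 0.0125% and 0.0125% of all genes for Kmt2a-HET, Kdm5c-KO and DM), and 1, 2 and 1 members had an unadjusted p under 0.05. Here too the percentages are of genes called after adjustment and not of genes at an unadjusted p. Spink8 was at 0.99 for Kmt2a-HET, 1.77 for Kdm5c-KO and 1.81 for DM (unadjusted p of 0.0364, 0.000173 and 9.13e-05). Without the mice numbered 1 these were 0.26, 1.63 and 1.21.

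The dentate genes varied together between hippocampal libraries. Over the 36 pairs, Pearson's r of log2 normalised counts was tested across 16 libraries with 100000 permutations and adjusted over the pairs, and 11 pairs were called, all positive. No share of called pairs among other hippocampal genes is given beside this. The 3 dentate genes formed the tightest group. Prox1 and Dsp had r = 0.89 and rho = 0.82 (permutation p = 1.0e-05, the smallest these permutations give, and 0.000170), Prox1 and C1ql2 had r = 0.88 and rho = 0.88, and Dsp and C1ql2 had r = 0.85 and rho = 0.78. Without the 2 libraries farthest from the median of the first gene r was 0.79, 0.84 and 0.77. After genotype means were subtracted, and with libraries permuted within genotype, r was 0.92, 0.84 and 0.81 (adjusted p = 0.00900, 0.0362 and 0.0493).

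Spink8 and Bok, one listed for CA1 and the other for CA3, had r = 0.73 and rho = 0.79 (permutation p = 0.00113 and 0.000470). Their r was 0.63 without the 2 farthest libraries and 0.67 within genotypes (adjusted p = 0.0794). The CA1 genes did not vary together as a group: Spink8 and Wfs1 had r = -0.17 (adjusted p = 0.757), and Spink8 and Fibcd1 had r = 0.43 (adjusted p = 0.254), which became -0.03 within genotypes. The remaining 7 called pairs joined Iyd or Zbtb20 to the dentate genes, to Fibcd1 or to each other, with r of 0.52 to 0.65. Of these, the 3 of Iyd with dentate genes fell to r of 0.33, 0.27 and 0.17 without the 2 farthest libraries, and those of Zbtb20 with Prox1 and Dsp to 0.27 and 0.23, so over all 16 libraries they rest on the 2 left out. Without the 4 libraries numbered 1, however, Zbtb20 had r = 0.75 with both Prox1 and Dsp (permutation test, adjusted p = 0.0259 and 0.0258), while the Iyd pairs had r of 0.37, 0.35 and 0.15 and were not called. None of the 7 was called within genotypes, and by Spearman's rho over all libraries none passed (permutation test, adjusted p of 0.115 to 0.295). The CA3 genes Bok and Iyd were called within genotypes (r = 0.76, adjusted p = 0.0203) and not over all libraries (r = 0.27, adjusted p = 0.602).

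**Figure D5:**
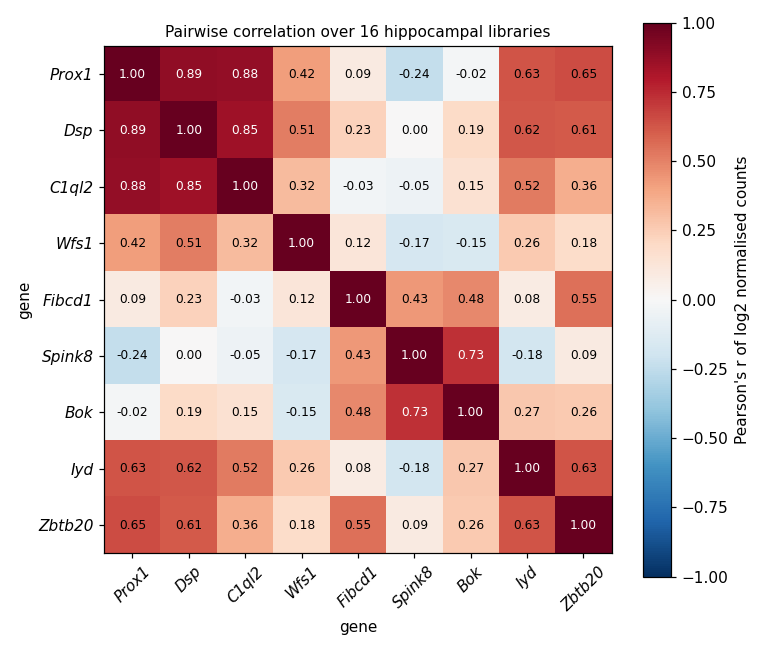
Pearson's r of log2 normalised counts for each pair of the 9 genes over 16 hippocampal libraries. Prox1, Dsp and C1ql2 form a block of 0.85 to 0.89, and Spink8 pairs with Bok at 0.73.

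Across all 13206 genes with a mean of at least 50 normalised counts in hippocampus, those most like each member within genotypes were named by their r over the 16 libraries. Prox1 was most like Dock10 (0.98) and Rfx3 (0.96), and Dsp most like Plekha2 and Btbd9 (both 0.96). C1ql2 was most like Parvg (0.94) and Stxbp6 (0.91). Zbtb20 was most like the NMDA receptor subunit gene Grin2a and the ephrin receptor gene Epha6 (both 0.98). Iyd was most like the secretory granule gene Chgb (0.95) and Ky (0.93), and Bok most like the cardiolipin synthase gene Crls1 (0.93) and the sugar transporter gene Slc2a6 (0.92). Likeness was lower for the CA1 genes: Wfs1 with the serotonin receptor gene Htr1b (0.86) and the potassium channel subunit gene Kcnab1 (0.84), Fibcd1 with Usp46 (0.86) and Ripor2 (0.84), and Spink8 with Tsen15 (0.88) and Iba57 (0.85). These values are the highest of many compared and carry no test.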

How the data were processed

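Both regions of 16 mice were sequenced as 32 strand-specific, poly(A)-selected paired-end libraries with ERCC spike-ins. Per the labels, the authors aligned reads to mm10 with STAR 2.5.3a and used featureCounts of Subread 1.5.0 and DESeq2 1.14.1. The deposited tables hold expected counts per gene and per transcript, some not whole, and how fractions arose was not given in the sources used here; they were rounded. Symbols came from GENCODE M21 by unversioned gene identifier (53620 of 53715 matched). DESeq2 1.42.0 (R 4.3.3) was fitted to 32 libraries for regions and to 16 per region for genotypes, without blocks or covariates, with unshrunken fold changes. Alternatives were edgeR 4.0.16, TMM or ERCC size factors, a filter of 10 counts in 4 libraries (which all 9 genes passed in hippocampus and all but Iyd in amygdala), adjusted p under 0.05, fits of 2 groups, replicate blocks, leaving out libraries, and leaving out the mice numbered 1. Scripts were tested on simulated data, in which more of the DESeq2 calls were false than the threshold allows. Correlations and exact permutation tests used scipy 1.17.1.

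The members, lists and tests were chosen with earlier results of these data known. All 9 members are named; of each other list, no more than the 3 best by adjusted p in the WT region comparison and genes called between genotypes, except 1 gene that is not reported here. Per the labels each mouse gave both regions, so its libraries are paired: deviations from group means correlated by a median of 0.169 within a mouse (over 0.1 in 14 of 16). Expected counts gave 19215489 to 27798976 per library, and intervals cover the spread between these mice.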

Additional observations from a re-analysis of the deposited data

Results flagged for a closer look

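In 72 groups of 4 libraries (9 genes, 2 regions, 4 genotypes), 2 had a library set apart from the other 3 by more than Dixon's 95% limit, where chance flags about 1 in 20. Dsp in Kmt2a-HET amygdala replicate 3 had 84.2 normalised counts against 57.0 to 60.0 in the other 3, a gap of 0.889 of the range. Zbtb20 in Kmt2a-HET amygdala replicate 1 had 1143 against 1838 to 1977, a gap of 0.834 of the range. Neither group enters a called genotype comparison.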

How the results depend on the processing

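Of 396 alternative counts of members called or pairs, 374 stayed within 1.5 times, and no called member changed sign. ERCC size factors gave 0 members in place of 1 for Spink8 in Kdm5c-KO against WT (1.36), DM against WT (0.73), DM against Kmt2a-HET (0.63) and Kdm5c as a factor (0.99) in hippocampus. Replicate blocks gave 2 in Kdm5c-KO against WT (Bok at 0.77, adjusted p = 0.048) and changed no other count; numbers across mice pair nothing in the labels, but 16 of 32 libraries correlated best with their own number, and 19 of 48 same-number pairs had r over 0.1 against 32 of 144 other pairs. Without the mice numbered 1 the count was 2 in that comparison and for Kdm5c in hippocampus (Bok, 0.98 and 0.63), and 1 for Kdm5c in amygdala (Dsp, -0.97). Fits of 2 groups called 2 in DM against Kmt2a-HET amygdala, C1ql2 (-0.49) and Fibcd1 (0.45). Leaving out single libraries gave 8 to 9 members for the region in Kmt2a-HET, 1 to 2 for Kdm5c-KO against WT and for Kdm5c in hippocampus, 0 to 2 for DM against Kdm5c-KO in hippocampus, and 0 to 1 for Kmt2a-HET against WT and Kdm5c in amygdala (C1ql2, 0.89; Prox1, -0.59) and for the added region contrast. Bok was called for Kdm5c in hippocampus without Kmt2a-HET replicate 1 (0.55, adjusted p = 0.0799).

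Uncalled Spink8 values changed sign: DM against Kdm5c-KO in hippocampus with ERCC factors (-0.63) or without the mice numbered 1 (-0.10), additivity (-0.37 to 0.06 over single left-out libraries), Kmt2a dose in hippocampus (-0.26 and -0.03), and in amygdala DM against WT (0.03, and -0.58 to 0.04 over left-out libraries), DM against Kdm5c-KO (-0.03, and -0.20 to 0.41), DM against Kmt2a-HET (-0.06), Kdm5c (0.11 and 0.06) and Kmt2a dose (0.05). So did Dsp for Kdm5c in amygdala (-0.68 to 0.10) and C1ql2 in DM against Kdm5c-KO hippocampus (-0.08). The causes were not tested.

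Pairs correlated by Pearson's r numbered 11, 5 within genotypes, 4 of them shared with the 11, 9 on CPM and 7 without the libraries numbered 1. With the longest transcript 3 of 9 genes kept their rank per length. With 4 mice a group, depth limits amygdala Iyd and Spink8.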
